A study of Mus musculus with 69 samples.

Results

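Umod, Slc12a1, Cldn16, Slc12a3, Pvalb, Calb1, Nphs1 and Podxl are genes used to recognise parts of the nephron other than the tubules that were dissected in this study. The thick ascending limb is represented by Umod, Slc12a1 and Cldn16, the distal convoluted tubule by Slc12a3, Pvalb and Calb1, and the podocyte of the glomerulus by Nphs1 and Podxl. The rule that picks them uses their symbols and no measured value. All 8 of 8 symbols were present once in each of the 4 tables, which list 55487 genes at 24 h and 53700 genes at 72 h. Between 2 and 5 of the 8 reached a mean of 1 TPM (a length-scaled share of a library's transcripts, with the same total in each library) in a given table, and these could be tested.

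RNA-seq libraries had been prepared from kidney tubules microdissected by hand from wild-type male C57BL/6 mice (Taconic), 7 weeks old, which had either lost a kidney by unilateral nephrectomy (UNx) or been operated on without its removal (sham). Tubules were collected 24 h or 72 h after surgery, from the proximal tubule's S1 segment (PT-S1) and from the cortical collecting duct (CCD). PT-S1 at 24 h comprised 8 libraries from 3 sham animals and 9 libraries from 4 UNx animals, and at 72 h 12 sham libraries and 12 UNx libraries, each set from 5 animals. For CCD there were 8 libraries from 4 sham animals and 7 libraries from 3 UNx animals at 24 h, and at 72 h 7 libraries from 4 sham and 6 libraries from 4 UNx animals. Several libraries share the number that follows Sham or UNx in their titles, which was read as the animal, and an animal's libraries were averaged before any test. The p-values therefore set the difference between groups against the spread of these animal means, which also carries the variation between an animal's libraries. Libraries of an animal are repeats of it.

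Proximal tubules reabsorb most of the filtered glucose, phosphate and amino acids. The thick ascending limb follows further along the nephron, takes up sodium, potassium and chloride through NKCC2, the product of Slc12a1, and secretes uromodulin, the product of Umod and an abundant protein of normal urine. Cldn16 encodes claudin-16, a tight junction protein of the same segment that carries magnesium and calcium between cells. The distal convoluted tubule takes up sodium and chloride through NCC, the product of Slc12a3, and its early part contains parvalbumin (Pvalb). Calbindin-D28K (Calb1) buffers calcium in the distal convoluted and connecting tubules, which lead into the collecting duct. Nephrin (Nphs1) forms the slit diaphragm between podocytes, and podocalyxin (Podxl) coats podocytes and also the surface of endothelial cells.

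The dissected segments carried their own markers. In PT-S1 the summed level of Slc5a2, Slc34a1, Slc5a12 and Lrp2 ranged from 1797 to 16096 TPM per library, and in CCD that of Aqp2, Aqp3, Avpr2 and Scnn1b ranged from 13883 to 64759 TPM. The number of genes at 1 TPM or more per library was 9247 to 12494 in PT-S1 and 12681 to 14875 in CCD. In 5 libraries the median correlation of log2(TPM + 1) with the other libraries of the table lay under 0.92: 2 of PT-S1 24 h sham, 2 of PT-S1 72 h UNx and 1 of CCD 72 h sham. TPM values keep no sequencing depth, so the depth behind each value is unknown. The 4 tables were treated as normalized separately, and levels in different tables are set side by side here without a test.

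The sequences upstream of the 3 thick limb genes are shown because Umod and Slc12a1 were high in the same 3 CCD libraries at 24 h, and Cldn16 in 2 of those 3. The sequences are from RefSeq with build GRCm38.p6, and 6 of the 8 genes had an entry. Each is the part of the 250 bases before the listed start that lies outside the annotated gene, on the gene's strand and from 5′ to 3′. Capitals mark the HNF1 half-site GTTAAT, searched on both strands.
Umod (chr7:119479263-119479512, minus strand): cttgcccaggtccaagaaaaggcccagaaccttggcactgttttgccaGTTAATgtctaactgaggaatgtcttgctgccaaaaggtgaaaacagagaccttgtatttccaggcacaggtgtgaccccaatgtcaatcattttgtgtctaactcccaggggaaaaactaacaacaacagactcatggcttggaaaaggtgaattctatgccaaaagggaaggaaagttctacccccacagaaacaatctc
Slc12a1 (chr2:125152350-125152509, plus strand): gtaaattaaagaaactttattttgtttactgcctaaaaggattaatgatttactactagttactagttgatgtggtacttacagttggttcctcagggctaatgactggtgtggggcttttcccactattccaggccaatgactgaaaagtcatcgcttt
Cldn16 (chr16:26462885-26463134, plus strand): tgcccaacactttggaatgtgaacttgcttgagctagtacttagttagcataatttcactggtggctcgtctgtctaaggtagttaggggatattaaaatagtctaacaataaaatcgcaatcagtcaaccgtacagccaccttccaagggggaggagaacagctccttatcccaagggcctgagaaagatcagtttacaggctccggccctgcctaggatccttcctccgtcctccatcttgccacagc
The half-site was present in the Umod window and not in those of Slc12a1 and Cldn16. Among 32851 listed promoters, 6.43% held it in their first 250 bases and 4.24% in their first 160 bases. A match is a description of these letters and not evidence of binding.

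Umod (ENSMUSG00000030963) was present in every CCD library and was near absent from most PT-S1 libraries. In CCD at 24 h it ranged from 50.7 to 5965 TPM over 15 libraries, with a median of 134 TPM, and at 72 h from 6.72 to 95.2 TPM over 13 libraries, with a median of 14.6 TPM. In PT-S1 the median over 41 libraries was 0.34 TPM, and 27 of them lay under 1 TPM. Slc12a1 (ENSMUSG00000027202), the transporter gene of the same segment, had a median of 2.01 TPM in CCD at 24 h and 0.23 TPM at 72 h. Cldn16 (ENSMUSG00000038148) was found in every CCD library, at medians of 2.38 TPM at 24 h and 2.43 TPM at 72 h, and was listed at 0 in 33 of 41 PT-S1 libraries. In bulk samples such as these, fewer cells of a type and less RNA per cell cannot be told apart.

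The highest thick limb values of the series lay in 3 libraries of CCD 24 h sham, from 3 different animals. Sham animal 1 gave Umod values of 134 and 1271 TPM in its 2 libraries. Sham animal 2 gave 5965 and 89.9 TPM, and sham animal 4 gave 365, 78.0 and 86.4 TPM. Sham animal 3, with a single library, gave 95.1 TPM. In each of the animals 1, 2 and 4 a single library stood above the rest, by 9.48-fold, 66.4-fold and 4.68-fold over the lowest library of the same animal. The UNx animals gave 50.7 and 108 TPM, 190 and 206 TPM, and 111, 167 and 139 TPM, so that none of the 7 UNx libraries reached the level of those 3 sham libraries.

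Slc12a1 separated the same 3 libraries from the others more widely. It was 0.77 and 114 TPM in sham animal 1, 800 and 3.63 TPM in animal 2, 2.01 TPM in animal 3, and 54.1, 0.16 and 1.51 TPM in animal 4, in the same order of libraries as for Umod. The highest library of an animal exceeded its lowest by 148-fold, 220.3-fold and 338-fold in animals 1, 2 and 4. The other 12 libraries of the table, 7 of them from UNx animals, lay between 0.13 and 5.39 TPM. Cldn16 followed in 2 of the 3 libraries, at 10.95 and 49.1 TPM, whereas the library of animal 4 gave 1.7 TPM, inside the range of 1.24 to 4.31 TPM of the other 12.

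**Figure D1:**
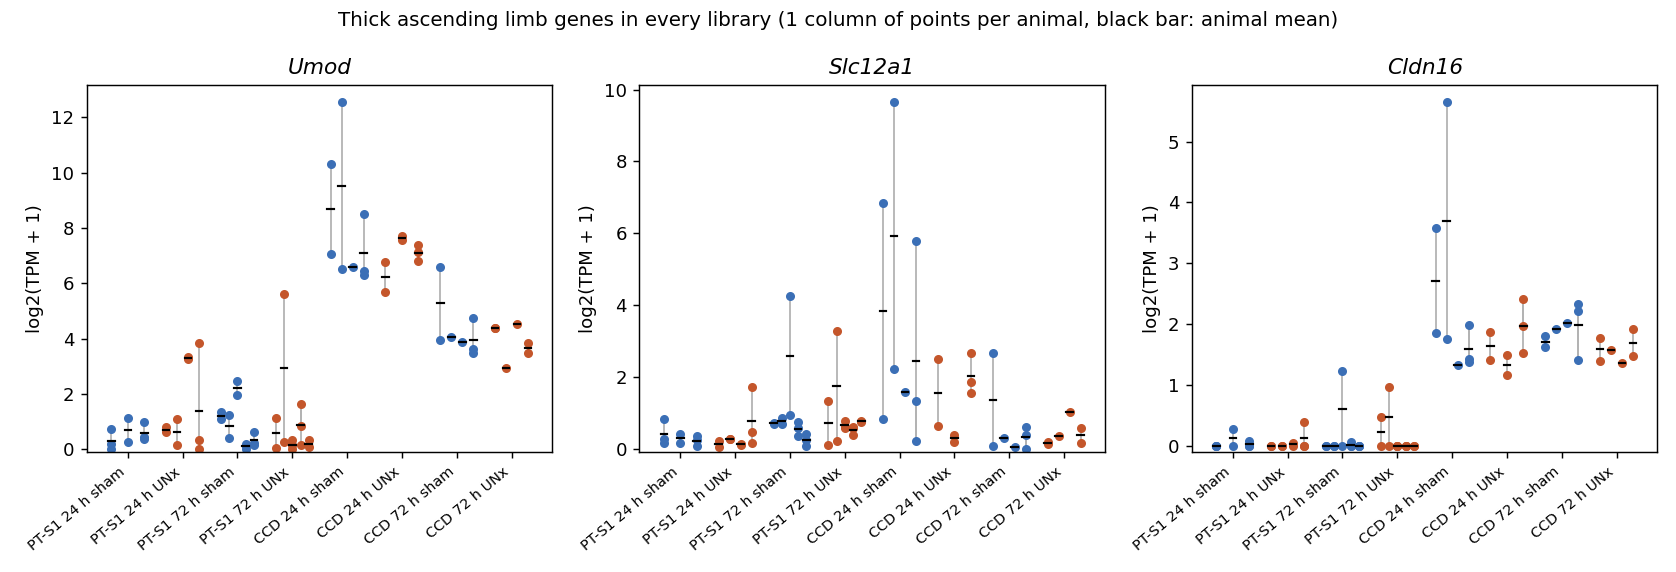
Level of Umod, Slc12a1 and Cldn16 in each of the 69 libraries, as log2(TPM + 1), by segment, time and operation (blue sham, orange UNx). Each column of points is 1 animal, each point a library and the black bar the animal's mean. The 3 high sham libraries of CCD 24 h stand above the other libraries of their own animals for Umod and Slc12a1.

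Of the other thick limb genes on the list, 4 were high in all 3 libraries. Egf, the epidermal growth factor gene that the thick limb and early distal tubule express, ranged from 60.3 to 1374 TPM in them and from 0.86 to 16.2 TPM in the other 12 libraries. Ppp1r1a, a phosphatase inhibitor gene used as a thick limb marker, ranged from 23.8 to 310.2 TPM against 0.21 to 4.25 TPM. Tmem207 ranged from 1.77 to 32.4 TPM against 0 to 0.22 TPM, and Cldn19, the partner claudin of Cldn16, from 4.19 to 59.2 TPM against 1.17 to 3.93 TPM. For each of these 4 genes the lowest of the 3 libraries lay above the highest of the 12. This did not hold for Ptger3, a prostaglandin E2 receptor gene, which was 36.4 and 71.8 TPM in the libraries of animals 1 and 2 but 18.7 TPM in that of animal 4, against 11.6 to 25.2 TPM in the 12. Nor did it hold for Tmem72, a membrane protein gene, at 36.4, 74.1 and 46.9 TPM against 30.5 to 52.6 TPM. Foxq1, also on the list, went the other way. Its sham mean was 14.8 ± 4.17 TPM (SD, n = 4) with all libraries and 16.6 ± 5.38 TPM (SD, n = 4) without the 3. The libraries were picked out by their Slc12a1 level after it had been seen, so these values are descriptions with no test.

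Among collecting duct markers, some did not set the 3 libraries apart, others were lower there, and Atp6v1b1 was raised within animals 1 and 2. Avpr2, the vasopressin receptor of principal cells, ranged from 857 to 995 TPM in them and from 830 to 1410 TPM in the other 12 libraries. Scnn1b, a subunit of the epithelial sodium channel, ranged from 988 to 1089 TPM against 771 to 1177 TPM. Aqp2, the water channel of principal cells, was 9759 TPM in the high library of animal 1 and 10685 TPM in its other library, and 33606 against 34487 TPM in animal 2. In animal 4 it was 11824 TPM, against 11864 and 12382 TPM. Aqp3, another water channel of principal cells, was lowest in the high library of each animal, at 2064 against 2877 TPM in animal 1, 5035 against 6104 TPM in animal 2, and 3440 against 3476 and 3663 TPM in animal 4. Slc4a1, the anion exchanger of acid-secreting intercalated cells, was also lowest there, at 134 against 301 TPM, 230.3 against 413 TPM, and 356 against 409 and 394 TPM. The intercalated cell gene Atp6v1b1 was higher in the high library of animals 1 and 2, at 927 against 631 TPM and 933 against 399 TPM. In animal 4 it was 511 TPM, against 460 and 714 TPM. The other 12 libraries ranged from 319 to 1033 TPM for Atp6v1b1. The median correlation with the rest of the table was 0.962, 0.963 and 0.965 in the high libraries of animals 1, 2 and 4. These values were the lowest of each animal, within a range of 0.962 to 0.970 over the 15 libraries.

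The ratio of Umod to Slc12a1, taken within a library, was low in the 3 libraries, which were picked by a high value of its denominator. It was 7.46, 11.1 and 6.74 in the 3 libraries, in the order of sham animals 2, 1 and 4. In the other 12 libraries of CCD 24 h the ratio ranged from 11.05 to 1458, with a median of 60.3, and in CCD 72 h, where Slc12a1 was above 0 in 12 of 13 libraries, it ranged from 18.1 to 342 with a median of 59.1. The lowest of the 12 thus lay inside the range of the 3. Every CCD 24 h library had more Umod than 12 of the 13 CCD 72 h libraries, while the Slc12a1 range of 0.13 to 5.39 TPM in the 12 lower libraries at 24 h stood beside one of 0 to 5.27 TPM at 72 h. The tables were treated as normalized separately, so these levels at 24 h and 72 h were not tested against each other.

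**Figure D2:**
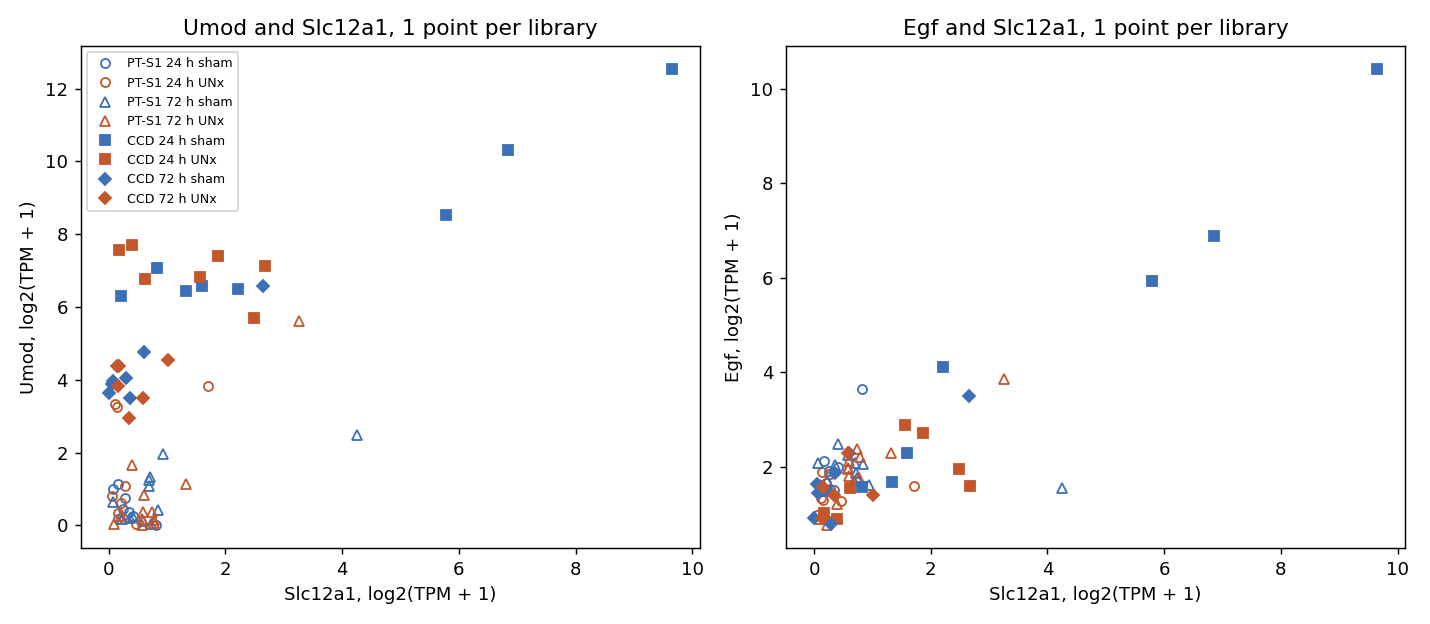
Umod (left) and Egf (right) against Slc12a1 in each of the 69 libraries, all as log2(TPM + 1); symbols give segment and time, blue sham and orange UNx. The 3 CCD 24 h sham libraries with 54.1, 114 and 800 TPM of Slc12a1 lie at the upper right of both panels, and the other CCD libraries form a band of Umod at low Slc12a1.

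CCD at 72 h held a single high library for the thick limb, in sham animal 1. Umod was 14.6 and 95.2 TPM in the libraries of that animal, 15.6 TPM in animal 2, 13.7 TPM in animal 3, and 10.3, 11.4 and 26.1 TPM in animal 4. Slc12a1 was 5.27 TPM in the library with 95.2 TPM of Umod, and at most 1.02 TPM in the other 12 libraries of the table. This library is the one of low correlation in CCD 72 h, at 0.914. The mean of Umod over sham animals was 25.04 ± 19.9 TPM (SD, n = 4) with it and 15.0 TPM without it, against 15.1 ± 7.17 TPM (SD, n = 4) in UNx animals. Cldn16 in the same library was 2.49 TPM, inside the range of the table of 1.57 to 4.02 TPM. Some collecting duct markers were low in this library. Slc4a1 was 28.4 TPM, against at least 233 TPM in the other 12 libraries, and Scnn1b was 588 TPM, against at least 931 TPM. Aqp2, at 14711 TPM, and Avpr2, at 962 TPM, lay inside the range of the other libraries.

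In PT-S1 the highest Slc12a1 values were those of single libraries. Slc12a1 reached 2 TPM in 3 of 41 libraries: 2.26 TPM in a library of UNx animal 4 at 24 h, 18.0 TPM in a library of sham animal 3 at 72 h, and 8.6 TPM in a library of UNx animal 2 at 72 h. Umod in these libraries was 13.2, 4.61 and 47.9 TPM, and Cldn16, at 0 in most PT-S1 libraries, was 0.32, 1.34 and 0.96 TPM. The other libraries of the same animals had Slc12a1 of 0.38 and 0.11 TPM, 0.91 TPM and 0.16 TPM, in the same order of animals, so each of the 3 values was that of a single library. The library with 0.16 TPM is 1 of the 5 of low correlation, at 0.844, and its proximal markers were low as well, with Slc34a1 at 1360 TPM against 11074 TPM in the other library of that animal. The ratio of Umod to Slc12a1 was 5.84, 0.256 and 5.57.

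UNx animal 3 of PT-S1 at 24 h showed another pattern. Both of its libraries held Umod, at 8.53 and 9.08 TPM, with Slc12a1 of 0.1 and 0.08 TPM and Cldn16 of 0.04 and 0 TPM. Havcr1, the kidney injury molecule-1 gene that damaged proximal tubule cells express, was 15.2 and 19.5 TPM in these libraries. In the library of UNx animal 4 with 13.2 TPM of Umod it was 4.83 TPM, and in the other 14 libraries of the table at most 1.49 TPM. Havcr1 was the gene whose level ran most like that of Umod over the 17 libraries of the table, with Pearson's r = 0.90 after removal of the group means, followed by Phlda3 (r = 0.86) and Lgals3 (r = 0.85), among 11873 genes. Lgals3, which encodes galectin-3, was 25.6 and 7.48 TPM in both libraries of animal 3. These correlations over libraries, several of which share an animal, are descriptions. The 3 libraries with the most Umod were also the 3 with the most Havcr1. Both libraries of UNx animal 3 were the lowest of the table for the proximal gene Slc5a2. It was 716 and 869 TPM in them, against 1176 to 4236 TPM in the others. Slc34a1 was 4802 and 5649 TPM, against 3789 to 11207 TPM.

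The order of genes by likeness to Umod differed between tables. In CCD 24 h the 3 nearest were Tmem207 (r = 0.95), Ptger3 (r = 0.95) and Kng2 (r = 0.95) over 15 libraries, and Ppp1r1a ranked 11, Egf 19, Cldn19 20, Cldn16 22 and Slc12a1 26 of 13773 genes. The other companions tested there were farther off, with Tmem72 at rank 233 (r = 0.60) and Foxq1 at rank 9448 (r = -0.22). In CCD 72 h the nearest were Sugt1 (r = 0.93), Pde6d (r = 0.92) and Crip1 (r = 0.92) over 13 libraries, and Cldn16 ranked 3735 with r = -0.0099. Of the companions tested there, Ppp1r1a ranked 17 (r = 0.86), Egf 911 (r = 0.57) and Cldn19 1754 (r = 0.35). Ptger3, Foxq1 and Tmem72 ranked 7920, 8196 and 8935, with r from -0.57 to -0.50. Umod in this table was 95.2 TPM in the library of low correlation and at most 26.15 TPM in the others. In PT-S1 72 h CT025692.1 (r = 0.84), Wfdc15b (r = 0.78) and Slc12a1 (r = 0.75) were the nearest over 24 libraries, at ranks 5, 6 and 7 once symbols that start with Gm and a number or end in Rik had been passed over.

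Thick limb genes varied widely between libraries of the same animal. In CCD 24 h the SD of log2(TPM + 1) between libraries of the same animal was 1.85 for Umod, 2.86 for Slc12a1 and 1.11 for Cldn16, and the SD between animal means of a group was 1.15, 1.57 and 0.87. In CCD 72 h the corresponding values for Umod were 0.94 and 0.70, and in PT-S1 they were 1.01 and 0.97 at 24 h and 1.09 and 1.00 at 72 h. For Calb1 in CCD 24 h both values were 0.19.

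Of the distal genes, Slc12a3 (ENSMUSG00000031766) and Pvalb (ENSMUSG00000005716) were near 0 in CCD, whereas Calb1 (ENSMUSG00000028222) was high in every CCD library. Slc12a3 was at most 0.53 TPM over the 28 CCD libraries, with a median of 0.105 TPM, and Pvalb was listed at 0 in 22 of them and was at most 0.26 TPM. Calb1 ranged from 263 to 678 TPM, with medians of 377 TPM at 24 h and 414 TPM at 72 h. In PT-S1 Calb1 had a median of 0.27 TPM over 41 libraries. The label of a distal convoluted tubule marker goes against these data for Calb1 in CCD, since the defining transporter gene of that segment was near 0 where Calb1 was high. Calb1 in CCD is therefore described by its level alone. Trpv5 and Slc8a1, on the list for the distal convoluted and connecting tubules, were present in CCD. As log2(TPM + 1) they averaged 3.45 to 3.50 and 3.46 to 4.17 over the 4 CCD groups.

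The other distal genes of the list ranged widely in CCD. At the low end Klhl3, an adaptor of the ubiquitin ligase that acts on WNK kinases, averaged 2.07 to 3.08 TPM over the 4 CCD groups, and Trpm6, a magnesium channel gene, 1.67 to 2.15 TPM. Tmem52b, a membrane protein gene used as a distal tubule marker, ranged from 366 to 915 TPM over the CCD libraries, and S100g, which encodes calbindin-D9k, from 53.3 to 6359 TPM. S100g was also present in every PT-S1 library, from 30.8 to 1035 TPM. Tmem52b in PT-S1 reached 21.3 TPM in a library of sham animal 3 at 72 h and lay at 2.91 TPM or less in the other 40. That library was the one with 18.0 TPM of Slc12a1, and its Calb1 was 2.14 TPM. It was also the highest of the 41 PT-S1 libraries for the collecting duct genes Aqp2 (2.01 TPM, the next 0.5 TPM), Scnn1b (2.87 TPM, the next 0.12 TPM), Slc4a1 (3.83 TPM, the next 0.17 TPM) and Slc26a4 (12.4 TPM, the next 6.66 TPM). The animal's other library had 3.94 TPM of Calb1, the highest of PT-S1, with 0.91 TPM of Slc12a1. Apart from 1 library of PT-S1 24 h at 1.38 TPM, all other PT-S1 libraries lay under 1 TPM for Calb1.

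**Figure D3:**
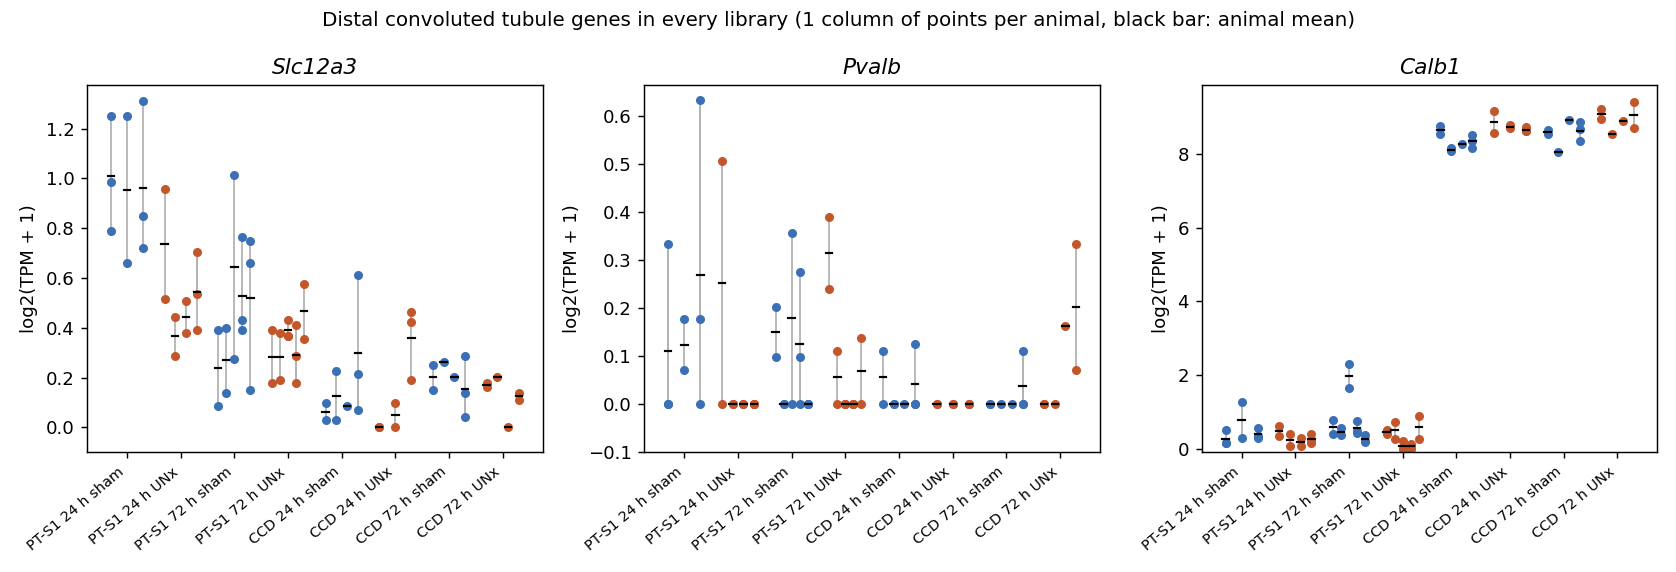
Level of Slc12a3, Pvalb and Calb1 in each of the 69 libraries as log2(TPM + 1), drawn as for the thick limb genes (blue sham, orange UNx, black bar the animal's mean; the vertical scales differ). Calb1 lies between 263 and 678 TPM in all 28 CCD libraries, while Slc12a3 and Pvalb stay under 1 TPM there.

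Slc12a3 was low in PT-S1 as well, with a median of 0.35 TPM over the 41 libraries. In PT-S1 at 24 h the sham animals had mean levels of 1.03, 0.98 and 0.977 TPM, and the UNx animals 0.685, 0.29, 0.36 and 0.463 TPM. The group means were 0.996 ± 0.030 TPM (SD, n = 3) in the sham group and 0.450 ± 0.172 TPM (SD, n = 4) after UNx, and the animals did not overlap. Single libraries did, from 0.58 to 1.48 TPM in sham and from 0.22 to 0.94 TPM in UNx. Among the genes tested in this table the animals of both groups did not overlap for 14.9%, and for 12.1% with UNx lower. Slc12a3 did not reach the mean of 1 TPM required for the test. At 72 h it was 0.384 ± 0.183 TPM (SD, n = 5) in the sham group and 0.272 ± 0.074 TPM (SD, n = 5) after UNx, with overlapping animals. Pvalb was at most 0.55 TPM in PT-S1 and listed at 0 in 26 of 41 libraries.

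Podocyte genes were at the edge of detection except for Podxl. Nphs1 (ENSMUSG00000006649) was listed at 0 in 34 of 41 PT-S1 and 22 of 28 CCD libraries and reached at most 0.22 TPM. Wt1, a transcription factor gene of podocytes, was at most 0.79 TPM in any library. Podxl (ENSMUSG00000025608) was above 0 in all libraries, from 0.34 to 8.39 TPM in PT-S1, with a median of 1.96 TPM, and from 0.78 to 4.98 TPM in CCD, with a median of 2.46 TPM. Podxl was thus present where Nphs1 and Wt1 were at or near 0.

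Endothelial genes moved with Podxl. The summed level of Pecam1, Kdr, Emcn, Egfl7 and Cdh5 ranged from 14.8 to 182 TPM per PT-S1 library and from 27.4 to 138 TPM per CCD library. In PT-S1 72 h the genes nearest to Podxl over 24 libraries were Adgrf5 (r = 0.96), Rasgrp3 (r = 0.95) and Ehd3 (r = 0.95), and Pecam1 and Emcn ranked 19 and 20 of 11884 genes. In CCD 72 h they were Egfl7 (r = 0.94), Gimap4 (r = 0.93) and Tmem88 (r = 0.93), and Kdr ranked 16 of 13769. In PT-S1 24 h Sorbs3 (r = 0.93), Ecm1 (r = 0.92) and Ushbp1 (r = 0.92) came first and Pecam1 ranked 122 of 11873, and in CCD 24 h Stimate (r = 0.89), Dysf (r = 0.87) and Ptpru (r = 0.86) came first and Kdr ranked 92 of 13773. Of the podocyte genes, Magi2 ranked 694 and Cdkn1c 4508 in PT-S1 72 h. In CCD 24 h the order was mixed, with the podocyte gene Synpo at rank 642, between Pecam1 at 381 and Egfl7 at 667. The part of endothelial RNA in the Podxl level was not tested.

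**Figure D4:**
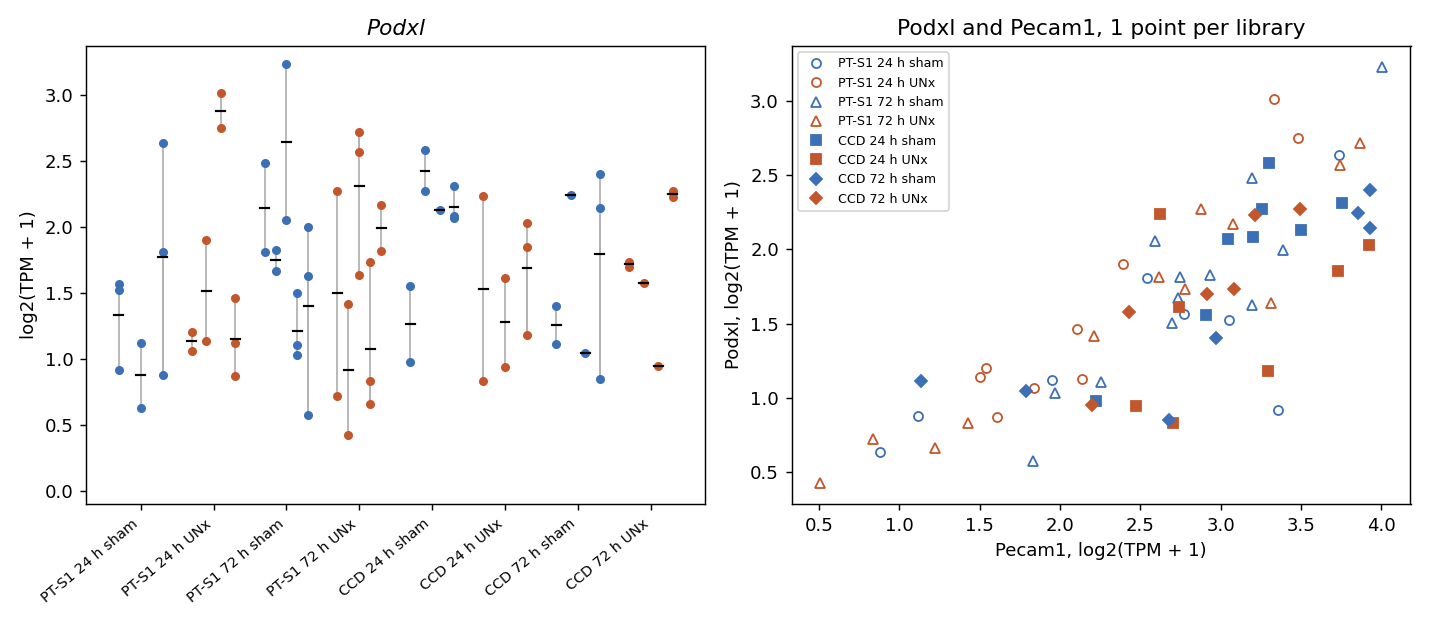
Left, Podxl in each of the 69 libraries as log2(TPM + 1), with 1 column of points per animal and the animal's mean as a black bar. Right, Podxl against the endothelial gene Pecam1 in the same libraries (blue sham, orange UNx); Podxl runs from 0.34 to 8.39 TPM and tends to be high where Pecam1 is high.

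The study's design asks whether removal of a kidney changed expression in the tubules of the remaining one. Each member with a mean of at least 1 TPM over the animals of a table was tested for UNx against sham by limma on log2(TPM + 1), within the fit of all genes of that table, with Benjamini-Hochberg adjustment over all genes tested and a threshold of 0.05. Of 32 combinations of member and table, 14 could be tested, and 0 of the 14 were called. In PT-S1 the share of all genes called was 0% at 24 h and 0% at 72 h (0 of 11874 and 0 of 11886, with 2109 and 2432 at an unadjusted p under 0.05). In CCD it was 0.987% at 24 h (136 of 13775) and 0.595% at 72 h (82 of 13770). The median change of all genes tested was -0.19 and -0.29 on the log2 scale in PT-S1 at 24 h and 72 h, and -0.038 and 0.010 in CCD.

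In CCD at 24 h the 3 thick limb genes had lower means after UNx, and no change passed the test. Umod averaged 1000.3 ± 1378 TPM (SD, n = 4) in the sham group and 139 ± 59.3 TPM (SD, n = 3) after UNx, with a log2 change of -0.98 (SE 0.66, limma adjusted p = 0.521). Slc12a1 averaged 120 ± 189 TPM (SD, n = 4) and 2.04 ± 1.62 TPM (SD, n = 3), with a change of -2.16 (SE 0.90, limma adjusted p = 0.296). For Cldn16 the change was -0.69 (SE 0.51, limma adjusted p = 0.564). The sham SD exceeded the sham mean for Umod, Slc12a1 and Cldn16, and the animals of both groups overlapped for all 3. The 3 high libraries described above all belong to sham animals, and the differences did not hold without them. In an alternative added after the data had been seen, leaving them out gave sham means of 100.3 ± 23.1 TPM (SD, n = 4) for Umod, 1.81 ± 1.34 TPM (SD, n = 4) for Slc12a1 and 2.20 ± 0.477 TPM (SD, n = 4) for Cldn16. The log2 changes were then 0.36 for Umod, now higher after UNx, -0.059 for Slc12a1 and -0.010 for Cldn16. Without only the library of animal 2 the sham mean of Umod was 266 TPM and its change -0.23. The libraries were picked by Slc12a1, so these values are descriptions.

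Calb1 had the smallest p of the members in this table. Sham animals averaged 403, 277, 308 and 327 TPM and UNx animals 474, 429 and 403 TPM, with group means of 328 ± 53.8 TPM (SD, n = 4) and 435 ± 36.1 TPM (SD, n = 3). The log2 change was 0.41 (SE 0.12, unadjusted p = 0.00833, limma adjusted p = 0.154), which does not pass the threshold. Averaged on the log2 scale the animals did not overlap, which held for 15.1% of genes tested in the table and for 5.55% with UNx higher. On the TPM scale sham animal 1 (402.95 TPM) and UNx animal 3 (402.5 TPM) met. Without the 3 libraries of high Slc12a1, an alternative added after the data had been seen, the change was 0.37 (limma adjusted p = 0.279). The summed level of principal cell markers was 13883 to 42760 TPM in sham and 36806 to 64759 TPM in UNx libraries of this table. Aqp2, its largest part, was 9759 to 34487 TPM in sham and 29303.5 to 54564 TPM in UNx libraries. Aqp3 was 2064 to 6104 and 5168 to 7811 TPM, Avpr2 830 to 1183 and 1122 to 1410 TPM, and Scnn1b 988 to 1167 and 771 to 1177 TPM. Among sham animals Calb1 was highest in animal 1, with Aqp2 of 9759 and 10684.5 TPM. It was lowest in animal 2, with Aqp2 of 33606 and 34487 TPM. The part of these levels in the Calb1 difference was not tested.

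Podxl in CCD at 24 h was 1.46, 4.41, 3.38 and 3.47 TPM in sham animals and 2.25, 1.49 and 2.32 TPM in UNx animals. Sham animal 1 lay just below the lowest UNx animal and the other 3 above the highest, with a log2 change of -0.50 (SE 0.27, limma adjusted p = 0.429). The endothelial sum ranged from 38.3 to 92.8 TPM in sham and from 39.2 to 129 TPM in UNx libraries.

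In CCD at 72 h Cldn16 was 2.29, 2.81, 3.07 and 3.11 TPM in sham animals and 2.04, 1.98, 1.57 and 2.27 TPM in UNx animals. All 4 UNx animals lay below all 4 sham animals, by a narrow margin between sham animal 1 and UNx animal 4. The log2 change was -0.36 (SE 0.18, limma adjusted p = 0.728). Non-overlap was seen for 4.77% of genes tested in the table, and for 1.54% with UNx lower. Calb1 averaged 385 ± 93.4 TPM (SD, n = 4) in the sham group and 486 ± 82.8 TPM (SD, n = 4) after UNx, with overlapping animals and a change of 0.34 (SE 0.19, limma adjusted p = 0.784). For Umod the change was -0.41 (SE 0.40, limma adjusted p = 0.906) and for Podxl 0.037 (SE 0.34, limma adjusted p = 0.995).

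In PT-S1 at 24 h Umod was 0.27, 0.7 and 0.55 TPM in sham animals and 0.64, 0.625, 8.81 and 4.49 TPM in UNx animals. UNx animals 3 and 4 were high and the other 2 lay inside the sham range, with a log2 change of 0.97 (SE 0.55, limma adjusted p = 0.344). All other animals lay under 1 TPM, so Umod passed the filter only through UNx animals 3 and 4. The direction of its change thus came with its selection. Podxl was 1.58, 0.86 and 2.85 TPM in sham and 1.2, 1.97, 6.41 and 1.26 TPM in UNx animals, with a change of 0.34 (SE 0.41, limma adjusted p = 0.642). UNx animal 3 was the highest for Podxl as well, and without it the change was -0.060 (limma adjusted p = 0.905). The endothelial sum ranged from 14.8 to 109 TPM in sham and from 23.4 to 102 TPM in UNx libraries.

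In PT-S1 at 72 h Umod, Slc12a1 and Podxl could be tested. The change was 0.011 (SE 0.52, limma adjusted p = 0.990) for Umod, -0.095 (SE 0.39, limma adjusted p = 0.889) for Slc12a1 and -0.27 (SE 0.32, limma adjusted p = 0.577) for Podxl, against the median of all genes of -0.29. The animals of both groups overlapped for all 3 of them, while 5.56% of the genes tested in the table showed no overlap. The mean of Umod was 1.26 ± 1.48 TPM (SD, n = 5) in the sham group and 5.20 ± 10.6 TPM (SD, n = 5) after UNx, the latter resting on UNx animal 2 at 24.1 TPM. With Umod kept in the test although it then averaged under 1 TPM, its change without that animal was -0.48. The change of Slc12a1 without sham animal 3, handled alike, was 0.31.

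**Figure D5:**
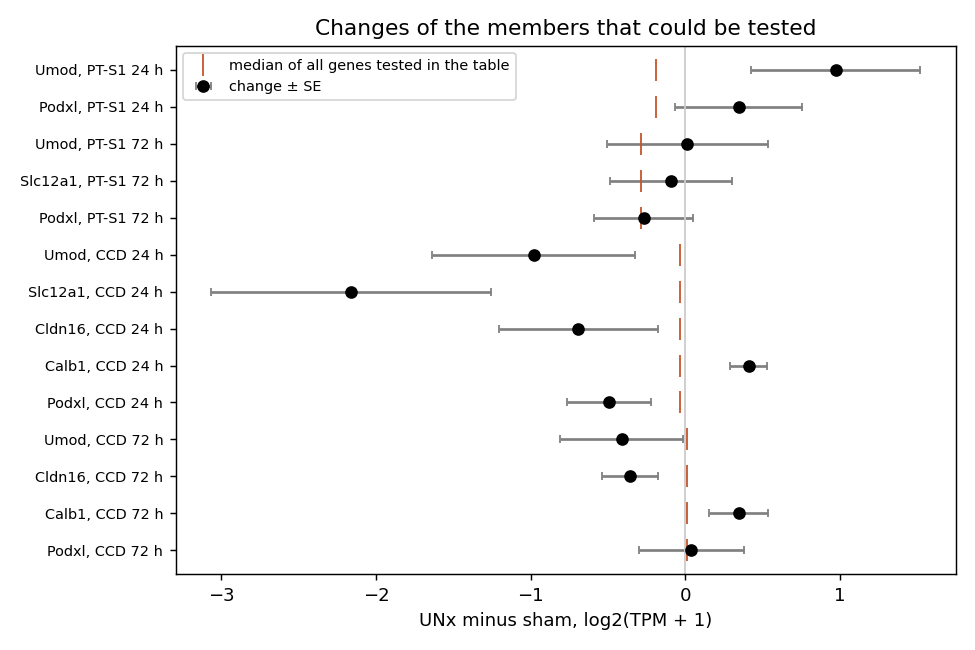
Change between UNx and sham animals (UNx minus sham, log2(TPM + 1)) for the 14 combinations of member and table that could be tested; points are limma estimates, bars ± 1 SE, and the orange ticks the median of all genes of the table. The largest estimate, -2.16 for Slc12a1 in CCD 24 h, has the widest bar, and the Calb1 bars in CCD are narrow.

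The difference of the UNx effect between 72 h and 24 h was tested for the 6 combinations of member and segment that passed the filter at both times, and none was called. The share of all genes called was 0% in PT-S1 (0 of 11455, with 381 at an unadjusted p under 0.05) and 0% in CCD (0 of 13253, with 658). The log2 difference was -0.96 (SE 0.84, limma adjusted p = 0.998) for Umod in PT-S1 and 0.57 (SE 0.83, limma adjusted p = 0.983) for Umod in CCD. For Calb1 in CCD it was -0.064 (SE 0.25, limma adjusted p = 0.994).

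Other genes used as markers of the same places, 8 for each, gave 0 calls in every table. Of the thick limb list 7 genes could be tested in CCD 24 h, with 2 higher and 5 lower after UNx and a median change of -0.96, against -0.038 for all genes. Tmem207, among the lower ones, passed the filter only through the 3 high sham libraries, so its direction came with its selection. It averaged 5.34 TPM in the sham group and 0.058 TPM after UNx, and 0.005 TPM in the sham group without them. Egf had a log2 change of -2.50 (SE 1.01, limma adjusted p = 0.275), with means of 195 ± 334 TPM (SD, n = 4) in the sham group and 2.67 ± 1.88 TPM (SD, n = 3) after UNx. Without the 3 high libraries the sham mean of Egf was 6.04 ± 6.87 TPM (SD, n = 4) and its change -0.69, and those of Ppp1r1a, Cldn19 and Tmem207 were -0.35, -0.14 and 0.069, against -2.05, -0.96 and -1.10 with them. Tmem72 had a log2 change of -0.069 (limma adjusted p = 0.882) and averaged 43.5 ± 9.62 TPM (SD, n = 4) in the sham group and 41.1 ± 6.25 TPM (SD, n = 3) after UNx. In CCD 72 h the median of 6 genes was -0.037, against 0.010 for all genes. In PT-S1 2 genes of the list, Egf and Ptger3, could be tested at each time, with medians of -0.62 at 24 h and -0.081 at 72 h, against -0.19 and -0.29 for all genes. Ptger3 had a log2 change of -0.73 (limma adjusted p = 0.254) in PT-S1 24 h.

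The distal list held 8 testable genes in CCD at each time, with medians of 0.0091 at 24 h and 0.00096 at 72 h, close to those of all genes. In PT-S1 3 genes could be tested at 24 h and 5 at 72 h, with medians of -0.12 and -0.28. Wnk4, a kinase gene that regulates NCC, averaged 27.5 ± 5.61 TPM (SD, n = 3) in the sham group of PT-S1 24 h and 16.1 ± 3.44 TPM (SD, n = 4) in its UNx group and had a log2 change of -0.70 (limma adjusted p = 0.254). Its animals did not overlap between the groups, as for 14.9% of genes tested in that table and for 12.1% with UNx lower. S100g had a log2 change of 0.65 (limma adjusted p = 0.567) in PT-S1 24 h and one of 0.32 (limma adjusted p = 0.612) in CCD 24 h. Tmem52b had a log2 change of 0.071 (limma adjusted p = 0.889) in CCD 24 h.

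Of the podocyte list, Magi2, a scaffold protein gene, averaged 12.6 ± 1.56 TPM (SD, n = 5) in the sham group of PT-S1 72 h and 7.51 ± 1.48 TPM (SD, n = 5) in its UNx group, with a change of -0.77 (limma adjusted p = 0.237). In CCD 24 h it averaged 9.10 ± 1.62 TPM (SD, n = 4) in the sham group and 5.57 ± 1.02 TPM (SD, n = 3) after UNx and had a log2 change of -0.66 (limma adjusted p = 0.114). Its animals did not overlap, as for 15.1% of genes tested in that table and for 9.51% with UNx lower.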

How the data were processed

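Per the labels' protocols, polyA RNA was extracted with a Zymo kit and SMART-Seq V4 was used for the cDNA. The authors deposited TPM values per gene and library in 4 tables. STAR, RSEM 1.3.3 and build GRCm39 are named in the submitters' processing notes, and the annotation release is not given in the sources used here. TPM scales each library to the same total, so no counting error was computed. All 69 columns were used. For 18 of them the name gives the group and the animal but not which library, so libraries are named by animal only. The members and companion lists were chosen with earlier results of these data known.

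Log2(TPM + 1) was averaged per animal, and genes whose mean reached 1 TPM in a table were compared with limma 3.58.1 in R 4.3.3 (trend, two-sided, Benjamini-Hochberg); this scale understates changes of low genes. For the time comparison, the UNx effect at 24 h was subtracted from that at 72 h in a fit of a segment's 4 groups. The script was tested on simulated data. Likeness is Pearson's r over libraries after removal of group means. Named were all members, the 2 highest companions of each list per segment, and the 3 genes most like Umod and Podxl; Slc12a3 passed the filter in no table. Some genes of the podocyte list are not reported here. Other genes were named as markers, or as members of the companion lists after their values were seen.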

Additional observations from a re-analysis of the deposited data

Results flagged for a closer look

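Animal means of the 8 members were screened within groups of 4 or 5 animals on the log2(TPM + 1) scale for a highest or lowest animal far from the others by Dixon's 95% criterion. The highest animal met it in 12 of 47 sets of values, and chance gives about 1 in 20; genes that share an animal's libraries are not separate chances. In PT-S1 72 h sham, animal 3 stood apart for Slc12a1 (9.46 TPM, the next animal 0.7 TPM), Calb1 (3.04 TPM, the next 0.515 TPM) and Cldn16 (0.67 TPM, the next 0.0167 TPM). In PT-S1 72 h UNx, animal 2 stood apart for Umod (24.1 TPM, the next 1.01 TPM) and Slc12a1 (4.38 TPM, the next 0.78 TPM). In CCD 72 h sham, animal 1 stood apart for Umod (54.9 TPM, the next 15.9 TPM).

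Cldn16 was listed at 0 in 20 of 24 PT-S1 72 h libraries, and for such a gene a single small value is enough. The other 6 also concern genes listed at 0 in most libraries. For Pvalb they were UNx animal 1 of PT-S1 24 h (0.21 TPM), UNx animal 1 of PT-S1 72 h (0.245 TPM) and sham animal 4 of CCD 72 h (0.0267 TPM). For Nphs1 they were UNx animal 1 of PT-S1 72 h (0.06 TPM), sham animal 4 of CCD 24 h (0.0333 TPM) and sham animal 3 of CCD 72 h (0.01 TPM). The 3 sham animals of CCD 24 h with a high library did not meet the criterion, which compares animal means.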

How the results depend on the processing

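None of the 20 member changes passed the threshold under any of the settings run, which gave 333 values; the smallest limma adjusted p was 0.0804, for Calb1 in CCD 24 h with the animal as a random effect. The direction held under all settings for 13 of the 20. Umod in CCD 24 h turned without the 3 libraries of high Slc12a1 (0.36), where Slc12a1 and Cldn16 kept the sign at -0.059 and -0.010. For Umod in PT-S1 72 h it turned with a pseudocount of 0.1 (-0.44), and leaving out an animal gave -0.20 to 0.33 (negative without sham animal 2, 4 or 5), and -0.48 without UNx animal 2. For Slc12a1 in PT-S1 72 h it turned without the low-correlation libraries (0.33), and leaving out an animal gave -0.31 to 0.31 (positive without sham animal 3). Members that fell under the filter when an animal was left out were kept in the test, a choice made after the data had been seen. Leaving out an animal turned Podxl in PT-S1 24 h (-0.060 to 0.57; UNx animal 3) and in CCD 72 h (-0.17 to 0.26; sham animal 1 or 3 or UNx animal 4), and the differences between times in CCD for Calb1 (-0.23 to 0.064; sham animal 2 at 24 h, sham animal 3 or UNx animal 2 at 72 h) and Cldn16 (-0.12 to 0.67; sham animal 2 at 24 h). Apart from the libraries named, the cause was not tested. Member levels moved by no more than 1 SD. Leaving out an animal can never move a group mean by more than that, so for those settings the outcome was fixed and shows no stability. Umod in CCD 24 h sham, with an SD of 1378 TPM, fell from 1000.3 to 266 TPM without its highest library.

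Counts of genes called, used here only as background, depend on the setting. Without the filter they were 2 in PT-S1 24 h, 1 in CCD 24 h, 7 in CCD 72 h and 1 for the time difference in PT-S1. With the animal as a random effect they were 100 in PT-S1 24 h, 10 in PT-S1 72 h and 485 in CCD 24 h. Median-ratio scaling gave 1 in PT-S1 24 h. Without the low-correlation libraries they were 1 in PT-S1 at either time, 129 in CCD 72 h, and 187 for the time difference in PT-S1; CCD 24 h has no such library. Leaving out an animal gave 0 to 8 and 0 in PT-S1 24 h and 72 h, 7 to 78 in CCD 24 h (any of the 7 animals lowers it by over 1.5 times) and 8 to 73 in CCD 72 h (likewise sham animal 2 and each UNx animal), and 0 to 1 for the time difference in CCD. Without the 3 CCD 24 h libraries of high Slc12a1, 165 genes were called, of which 111 were among the 136. With the replicate block, 81 genes were called in PT-S1 24 h, 0 in CCD 24 h and 3 in CCD 72 h; same-numbered animals had correlations from -0.366 to 0.328, so the numbers were not taken to pair animals. Depth is unknown, and values near 0 have no detection limit.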
